A study of Mus musculus with 6 samples.

Results

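Cassette exons of 61 to 150 nt whose length is not a multiple of 3 were examined in brain RNA of mice with different alleles of *Nxf1*, the gene of the main nuclear export receptor for mRNA. Members were chosen by name: every distinct event annotated as a cassette whose name ends in a single exon length within those limits, with a remainder on division by 3. There were 1056 such events, in 1002 genes, of 3777 cassette events and 13002 events of all kinds on the array. Intensities were given for 1052 of the 1056, in 999 genes. The 4 without them were in *Anxa4* (100 nt), *Tsr1* (104 nt), *Slc37a3* (124 nt) and the transcript uc009uax-1 (74 nt).

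The samples were whole brains of 6 mice of a B6.CAST congenic line, 3 homozygous for the B6 allele of *Nxf1* and 3 for the CAST allele, and the CAST animals also carried the neighbouring stretch of chromosome 19 from CAST. They came as 3 littermate pairs, 2 of females and 1 of males, with 1 animal of each genotype in a pair. Females of a pair were both 46 or both 23 days old, while the B6 male was 22 and the CAST male 23 days old. Each RNA was hybridized to an Affymetrix MJAY array, which holds probe sets for the junctions that skip a segment (the exclusion path) and for those that use it (the inclusion path). The intensities were deposited as 1 pooled value for a set A and 1 for a set B, with 3 arrays behind each, so that no spread between animals, no error and no test of any exon could be computed. The sets are not named by genotype. From the table's own definition of its score and from the study's methods, set B was likely the CAST allele, and all directions are given as set B relative to set A. *Nxf1* itself had no event on the array, so the labels could not be checked on the gene that differs. Of the brain markers with events on the array, those of neurons (3 of 8 genes, among them *Snap25*), astrocytes (4 of 5, among them *Gfap*), myelin (4 of 7, among them *Mbp*) and microglia (3 of 5, among them *Csf1r*) had median differences in summed intensity between -0.05 and 0.06 on the log2 scale. The median was -0.11 for endothelium (2 of 4 genes), and the blood gene *Alas2* stood at 0.18. The 2 of 8 immature neuron genes with events, *Dcx* and *Nnat*, lay lower in set B, with a median of -0.26 and a range from -0.28 to -0.06, and their part in the results below was not tested.

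A cassette exon is either joined into the mRNA or skipped together with the introns on its sides. Where such an exon lies in the coding sequence and its length is not a multiple of a codon, the choice moves every downstream codon into another reading frame. One of the forms then often meets an early stop codon and can be removed by nonsense-mediated decay, a route by which many genes for RNA-binding proteins limit their own amount. An exon in an untranslated region can have any length without changing the frame, and the table does not say which of these exons are coding. Nor need the frame change where another exon takes the place of the skipped one, and the members were not checked for this.

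For 3 of the exons the study designed gel-based RT-PCR assays, whose outcome was not analysed here. The primers are shown because they are the only sequences that the sources give for these events. Exon sequences could not be read and the primers could not be placed, since no genome of the table's build was at hand.
uc009bxd-1 (67 nt), primer 1: ctcccagtgagagcctcaaa
uc009bxd-1 (67 nt), primer 2: cacacagccaatccattctg
Slamf7 (104 nt), primer 1: ttaccactttggggatctgc
Slamf7 (104 nt), primer 2: tcctgtgcttctcagcagtg
5730419I09Rik (125 nt), primer 1: ctccccatccagagaactga
5730419I09Rik (125 nt), primer 2: tcttttccagcactcccact

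On the arrays, these exons were among the dimmer members, each with an intensity below 100, a level called dim in what follows. In uc009bxd-1 (chr6:50517021-50539907) the exclusion path read 197 and 178 in sets A and B, and the inclusion path 53 and 88. In *Slamf7* (chr1:173566505-173568793), a receptor of immune cells, exclusion read 83 and 73 and inclusion 111 and 129. In 5730419I09Rik (chr6:143021214-143026782), now named *C2cd5*, exclusion read 96 and 58 and inclusion 809 and 756. By these intensities all 3 had relatively less exclusion in set B. Positions are those of the table, whose build is not given in the sources used here, and run from one flanking exon to the other rather than over the exon alone.

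The measure used was the shift, the log2 of the exclusion to inclusion ratio in set B over the same ratio in set A, so that a value above 0 means relatively more exclusion in set B. It came to -0.88 for uc009bxd-1, -0.40 for *Slamf7* and -0.63 for 5730419I09Rik. An exon was counted as past the fold when its absolute shift was over 0.5, a 1.41-fold difference between the ratios. This is a threshold of size with no replicate check. *Slamf7* lay inside it.

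Of the 1052 exons, 90 were past the fold, or 8.56%, against a background of 7.24% of all 12553 events with an exclusion path. The share was close to that of other cassettes, with 8.03% of 1084 frame-preserving cassettes of the same lengths, 9.25% of 757 cassettes of up to 60 nt and 8.47% of 838 cassettes of over 150 nt. None of these shares was tested against another. The typical size of the shift was similar too. Its median absolute value was 0.18 in the frame-shifting exons, 0.18 in the frame-preserving ones and 0.17 over all events. Of the 100 events with the largest absolute shift on the array, 11 were frame-shifting cassettes of these lengths, a share of 11.0% against their 8.38% of all events.

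**Figure D1:**
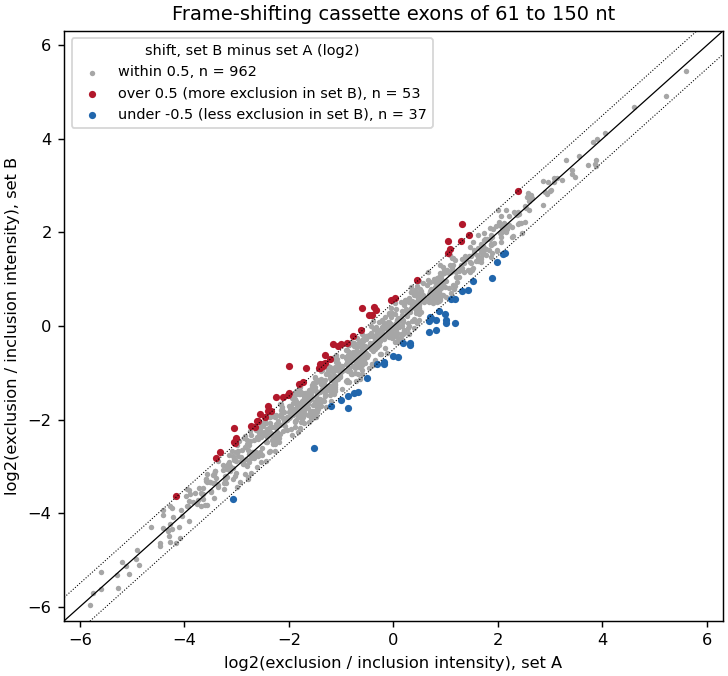
Log2 ratio of exclusion to inclusion intensity in set A (horizontal axis) and set B (vertical axis) for the 1052 frame-shifting cassette exons of 61 to 150 nt, 1 point per exon. The solid line marks equal ratios and the dotted lines a shift of 0.5 either way. The 53 exons above and the 37 below the dotted lines lie close to them, and most points follow the diagonal over the whole range of ratios.

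In direction, 53 of the 90 exons past the fold had more exclusion in set B and 37 had less, so that 58.9% were on the exclusion side. Over all events, 567 lay on that side (4.52%) and 342 on the other (2.72%). The split moved with the centring of the values, since the median shift of all events was 0.03 and not 0. With each shift taken relative to that median, 77 exons were past the fold, 35 toward exclusion and 42 toward inclusion, and the share toward exclusion became 45.5%. For all events it went from 62.4% to 50.6%. In the same way 580 exons lay above 0 and 472 below, or 55.1% above 0 against 55.4% of all events, and 49.9% after centring. The direction of the exons as a group therefore could not be told apart from an offset shared by all events.

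The shifts ran from -1.11 to 1.13, with an absolute value of 0.48 at the 90th percentile. In 75 of the 90 exons past the fold the exclusion intensity differed more between the sets than the inclusion intensity, and in 72 both intensities differed in opposite directions, shares of 83.3% and 80.0%. Of the 909 events past the fold in all, 72.6% and 82.0% did so. The exclusion path was the dimmer one in 57 of the 90, beside 703 of all 1052 exons. In 56 of the 90 it was the dimmer path that differed more, a count not made over all events. The brighter of the 2 paths was not the same in both sets for 51 of the 1052 exons (4.85%, against 4.6% of all events). Of these 51, 12 were past the fold, which was not counted over all events either. Exclusion and inclusion probe sets need not respond alike to the same amount of RNA, so a change of the brighter path is a statement about intensities and not about molecules.

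The 10 exons with the most relative exclusion in set B, among those with every intensity at 100 or more, were led by *Mgst1* (95 nt, chr6:138096316-138104673), a membrane-bound glutathione transferase. In sets A and B its exclusion path read 242 and 279, and its inclusion path 368 and 215, a shift of 0.98. Here the inclusion path made most of the difference, and the brighter path was inclusion in set A and exclusion in set B. In *Nfkb2* (70 nt, chr19:46385365-46385771), the precursor of the p52 transcription factor subunit, exclusion read 260 and 364 and inclusion 336 and 275, a shift of 0.77. The brighter path changed there as well, and *Nfkb2* lies on chromosome 19 but outside the congenic interval described further on.

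In 3 other members of this group inclusion was the brighter path in both sets and exclusion, the lower one, differed more. In *Dopey1* (83 nt, chr9:86394502-86396599), now named *Dop1a*, exclusion read 142 in set A and 226 in set B beside inclusion of 1171 and 1029, a shift of 0.86. In *Stxbp2* (149 nt, chr8:3634103-3635466), which binds syntaxins in vesicle fusion, exclusion read 232 and 352 beside inclusion of 736 and 658, a shift of 0.76. In *Lrrc61* (140 nt, chr6:48504892-48518135), exclusion read 124 and 189 beside inclusion of 592 and 539, a shift of 0.74. In these exons the skipped form was the one that stood higher in set B. In *Lrsam1* (91 nt, chr2:32803421-32808904), a ubiquitin ligase, exclusion read 134 and 196 and inclusion 299 and 256, a shift of 0.77, and the paths were closer to each other in set B.

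The remaining 4 had paths of similar intensity or brighter exclusion. *Trappc6a* (68 nt, chr7:20094181-20099770), a subunit of the TRAPP complex that tethers transport vesicles, read 508 and 910 on the exclusion path and 644 and 715 on the inclusion path, a shift of 0.69. It was the brightest of the group in its dimmest value, and both of its paths were higher in set B. *Agpat9* (86 nt, chr5:101275380-101275673), now named *Gpat3* and an acyltransferase of triglyceride synthesis, read 100 and 154 on exclusion and 138 and 130 on inclusion, a shift of 0.71. *Rfx2* (92 nt, chr17:56944850-56970326), a transcription factor of cilia genes, read 179 and 281 on exclusion and 239 in both sets on inclusion, a shift of 0.65. In all 3 the brighter path was inclusion in set A and exclusion in set B. *Tmco4* (115 nt, chr4:138528884-138539556) read 221 and 350 on exclusion and 107 and 100 on inclusion, a shift of 0.76 with exclusion brighter in both sets.

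At the other end, the exon of BC049762 (88 nt, chr11:51068166-51076278) had the lowest shift of all 1052, at -1.11. Exclusion was 373 and 227 in sets A and B, and inclusion 165 and 217, so that the 2 paths were near equal in set B only. The transcript uc009jfe-1 (62 nt, chr7:117632872-117703771) had 361 and 217 on exclusion and 1037 and 1325 on inclusion, a shift of -1.09. These exons and the *Srp19* exon (76 nt), which is dim, were the only 3 with an absolute shift over 1. *Srp19* codes for a protein of the signal recognition particle, and its exon had 69 and 99 on exclusion and 274 and 180 on inclusion, a shift of 1.13.

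Of the other 8 exons with the least relative exclusion in set B, the brighter path went from exclusion in set A to inclusion in set B in 4. In 5033414D02Rik (98 nt, chr19:29435417-29436286), now named *Plgrkt* and a plasminogen receptor, exclusion was 216 and 130 and inclusion 122 and 137, a shift of -0.90. In *Ptpla* (122 nt, chr2:13957584-13966409), now named *Hacd1* and a dehydratase of fatty acid elongation, exclusion was 211 and 107 and inclusion 131 and 117, a shift of -0.82. Both paths of *Ptpla* were lower in set B, exclusion by more. In *Pln* (127 nt, chr10:53057601-53063563), phospholamban, which holds back the calcium pump of the sarcoplasmic reticulum, exclusion was 167 and 129 and inclusion 157 and 205, a shift of -0.76. In *Acot8* (137 nt, chr2:164625425-164630210), a thioesterase of peroxisomes, exclusion was 316 and 219 and inclusion 252 and 280, a shift of -0.68. In *Pln* the inclusion path differed by about as much as the exclusion path.

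In 3 of the last 4, exclusion was brighter in both sets. They were 2410017P07Rik (67 nt, chr10:41465727-41529378), now named *Cep57l1* and related to a centrosome protein, with exclusion of 344 and 200, inclusion of 171 and 182 and a shift of -0.87. *Rps19bp1* (136 nt, chr15:80091804-80094433), whose product binds ribosomal protein S19, had exclusion of 344 and 234, inclusion of 174 and 195 and a shift of -0.72. *Glt8d1* (73 nt, chr14:31815183-31819644), a glycosyltransferase, had exclusion of 189 and 123, inclusion of 107 and 112 and a shift of -0.69. *Htr2c* (134 nt, chrX:143416148-143506927), the serotonin 2C receptor, was the exception. Its inclusion path was brighter in both sets, at 301 and 373, beside exclusion of 187 and 141, a shift of -0.72.

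**Figure D2:**
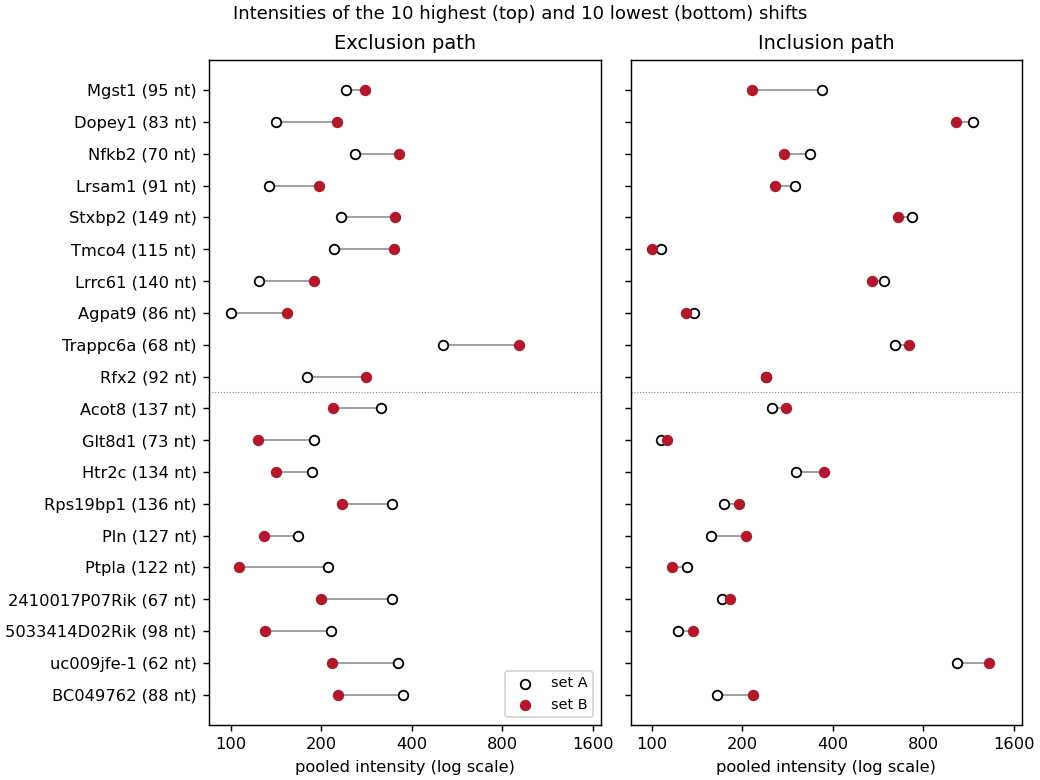
Pooled exclusion intensity (left panel) and inclusion intensity (right panel), both on a log scale, of the 10 highest shifts (above the dotted line) and the 10 lowest (below it) among the exons past the fold with every intensity at 100 or more. Open circles are set A and red circles set B. Exclusion differs in 1 direction within each block, from 508 to 910 in *Trappc6a* at the top end, while inclusion differs little except in *Mgst1* and a few others.

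How bright the probe sets were went with how many exons were past the fold. The 4 intensities of an exon ran from 47 to 9130 over the members, with a median of 275. Where the lowest of an exon's 4 intensities was under 100, 31 of 288 exons (10.8%) were past the fold, and between 100 and 149 it was 27 of 224 (12.1%). The share was 7.28% of 261 between 150 and 249, 5.82% of 189 between 250 and 499, and 2.22% of 90 from 500 upward. All events showed 10.3%, 7.85%, 6.94%, 5.79% and 3.38% in the same classes. The frame-shifting exons were dimmer than the frame-preserving ones of the same lengths, with median lowest intensities of 152 and 185, against 171 over all events. Of the 764 with every intensity at 100 or more, 59 were past the fold, or 7.72%, against 6.42% of all such events, and 33 of the 59 were on the exclusion side. Of all such events, 3.94% were past the fold on that side and 2.48% on the other. The part of intensity in the counts was not tested beyond these values.

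**Figure D3:**
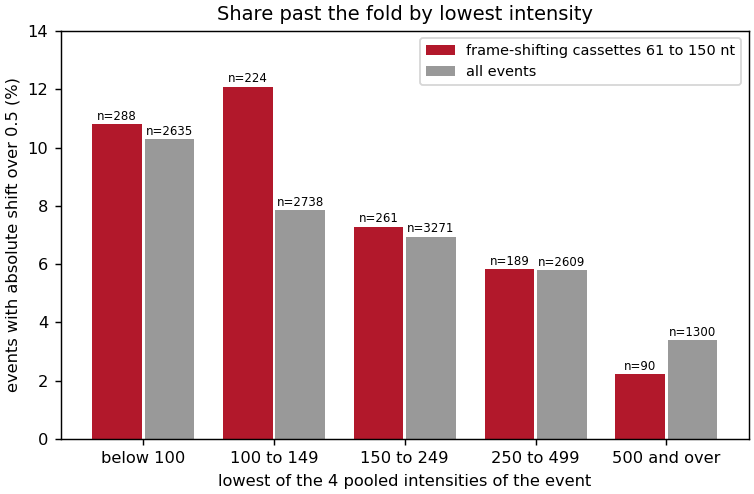
Share of events with an absolute shift over 0.5, in percent, by the lowest of the 4 pooled intensities of the event, for frame-shifting cassettes of 61 to 150 nt (red bars) and all events (grey bars), with the number of events above each bar. Shares fall from 10.8% and 10.3% below 100 to 2.22% and 3.38% at 500 and over, and the frame-shifting exons stand highest between 100 and 149, at 12.1%.

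Only 2 exons past the fold had every intensity at 500 or more, *Trappc6a* and *Paip2*. *Paip2* codes for a repressor of translation that binds the poly(A)-binding protein. Its exon (82 nt) was also by far the brighter, with exclusion of 3416 in set A and 2252 in set B, inclusion of 1379 and 1333 and a shift of -0.55. Exclusion was the brighter path there in both sets, and nearly the whole difference was on that path.

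By intensity, inclusion was the brighter path in set A for 699 exons (66.4%) and in set B for 702. The share in set A was 63.9% for frame-preserving cassettes of these lengths and 55.3% for all events. Median intensities were 201.5 and 209 for exclusion and 357 and 359.5 for inclusion, in sets A and B. Direction past the fold went with this balance, taken as the mean log2 ratio over both sets. Where inclusion was over 4-fold above exclusion, 18 of 239 exons were past the fold and 16 of them had more exclusion in set B. Where inclusion was above exclusion by up to 4-fold, 25 of 40 did. Where exclusion was above inclusion by up to 4-fold, 11 of 31 did and 20 had less, in 280 exons. The shares past the fold in these 3 classes were 7.53%, 8.58% and 11.1%, against 8.13%, 8.4% and 6.35% of all events in them. The difference in the last class was not tested, and the directions here were not centred on the median of all events. In the same 3 classes of all events, 68.8%, 65.5% and 56.9% of those past the fold were on the exclusion side, so the same order was present there with a smaller spread. Exons with exclusion over 4-fold above inclusion gave 1 of 67, against 4.43% of such events in all.

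Within the length window, 28 of 375 exons of 61 to 90 nt were past the fold (7.47%), 32 of 409 of 91 to 120 nt (7.82%) and 30 of 268 of over 120 nt (11.2%). Frame-preserving exons gave 8.49%, 7.48% and 8.10% in the same classes. The direction was not alike over the window. Of the 28 shortest, 11 had more exclusion in set B and 17 less, while the longer classes had 22 against 10 and 20 against 10. Frame-preserving exons past the fold had 23 against 14, 20 against 10 and 15 against 5 in the same classes. Over all events, 62.4% of those past the fold were toward exclusion. None of these splits was centred or tested. With only exons of every intensity at 100 or more, the 3 classes of frame-shifting exons had 6 against 13, 14 against 6 and 13 against 7. Such frame-preserving exons had 15 against 11, 12 against 8 and 12 against 3. The median shift was 0.01 for 61 to 90 nt and 0.04 for each of the longer classes, against 0.18 for the median absolute shift of all the exons.

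The 2 ways of shifting the frame looked much alike. Of 518 exons with a remainder of 1, 47 were past the fold (9.07%), 28 of them toward exclusion. Of 534 with a remainder of 2, 43 were (8.05%), 25 of them toward exclusion. Median absolute shifts were 0.19 and 0.18.

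**Figure D4:**
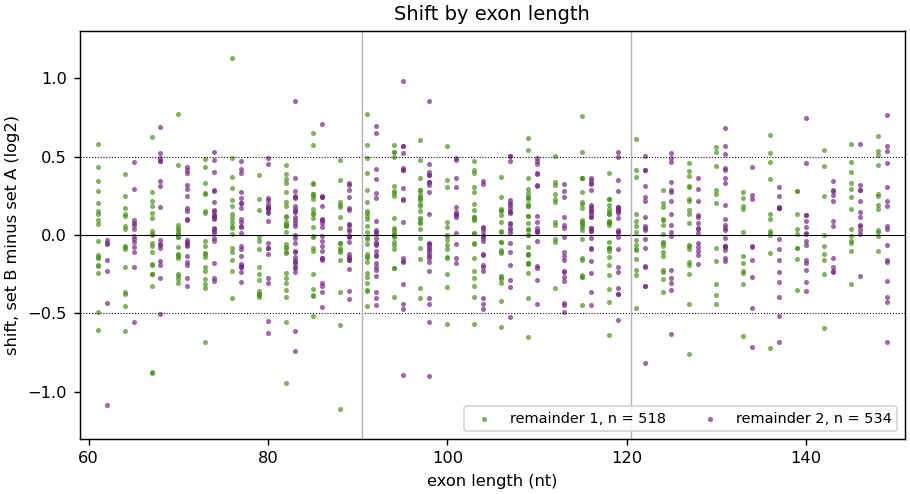
Shift (log2, set B minus set A) by exon length in nt, 1 point per exon, green for lengths with a remainder of 1 on division by 3 (518 exons) and purple for a remainder of 2 (534 exons). Dotted lines mark 0.5 and -0.5 and grey vertical lines the length classes. Points of both colours spread about 0 at every length, and the 30 exons past the fold over 120 nt are mostly above 0.5.

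At the limits of the window, counts were small. Past the fold were 2 of 18 exons of 61 nt, namely *Socs5* (486 and 350 on exclusion, 123 and 135 on inclusion, a shift of -0.61) and the dim *Ptcd3* (0.58), and 4 of 16 exons of 149 nt. The 4 were *Stxbp2*, *Hn1l* at 0.57, and the dim exons of *Ahnak* at 0.53 and *March1* at -0.68. Just outside, 2 of 20 cassettes of 59 nt and 1 of 13 of 151 nt were past the fold. *Socs5* codes for a suppressor of cytokine signalling, and *March1* for a membrane-bound ubiquitin ligase.

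The stretch covered by an event, from flanking exon to flanking exon, had a median of 4.84 kb with quartiles of 1.94 and 12.0 kb, against a median of 5.09 kb for frame-preserving cassettes. With the exons ordered by these stretches and parted at the quartiles, from the shortest to the longest, 7.58%, 8.78%, 9.89% and 7.98% of the exons were past the fold. On chromosomes, the share ran from 0 of 36 exons on chromosome 12 and 2 of 63 on chromosome 9 (3.17%) to 5 of 25 on chromosome 13, with 8 of 58 on chromosome 6, 10 of 76 on chromosome 8 and 4 of 26 on chromosome 19. Shares of all events by stretch or by chromosome were not computed, so none of these differences can be called particular to the exons.

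In the congenic interval, set here as the span of the array events of *Fkbp2*, *Ganab*, *Stx3*, *Tmem138* and *Ttc9c* (chr19:7053631-11866235), there were 2 of the exons. The one in *Chrm1* (92 nt), the muscarinic receptor M1, had exclusion of 1799 and 1466 in sets A and B, and inclusion of 893 and 749. Both paths were lower in set B by a similar factor, and the shift was -0.04. The one in *Ahnak* (149 nt), a giant scaffold protein, had exclusion of 228 and 298 and inclusion of 93 and 84, a shift of 0.53 with a dim inclusion path. Sequence differences under the probes and a difference in splicing cannot be told apart in this interval, where 6 of all 70 events were past the fold. The CAST stretch may reach past these limits, which are those of the named genes only. Other exons of chromosome 19, such as that of *Rps6kb2* (113 nt, chr19:4157179-4157702, a shift of -0.43), may therefore lie in it too. In genes that the study assayed for intronic IAP retroviral insertions, there were exons in *Phf20* (115 nt), with exclusion of 168 and 199, inclusion of 747 and 687 and a shift of 0.37, and in *Bdh1* (88 nt), with exclusion of 968 and 784, inclusion of 127 and 111 and a shift of -0.11.

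By function, 320 of the exons fell in 12 lists of genes, and the other 732, of which 73 were past the fold (9.97%), fell in none. The lists are described by counts, beside the 8.56% of all the exons and the 7.24% of all events. The lists were not complete for their functions, so each count holds only for the genes listed. Some exons past the fold in other genes of the same functions fell in none.

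RNA-binding and splicing genes, in which frame-shifting exons are a known means of self-control, held 29 exons, of which 2 were past the fold toward exclusion and 1 toward inclusion. All 3 were dim on the exclusion path. They were *Hnrnpa2b1* (136 nt, 69 and 94 on exclusion, 691 and 605 on inclusion, a shift of 0.64), *Hnrpll* (119 nt, 96 and 152, 1708 and 1877, a shift of 0.53) and the helicase gene *Ddx60* (106 nt, 85 and 66, 96 and 112, a shift of -0.59). Among those with every intensity at 100 or more, the largest absolute shifts were 0.32 in *Rbm18*, 0.21 in *Rbm3*, a cold-induced RNA-binding protein, and 0.20 in *Snrp70*, the U1 snRNP protein. *Snrp70* (80 nt) was bright, with exclusion of 4826 and 4645 and inclusion of 824 and 692, so that the skipped form dominated by intensity in both sets. *U2af1* (67 nt), the small subunit that reads the 3′ splice site, had exclusion of 350 and 325, inclusion of 255 and 208 and a shift of 0.19. *Clk1* (91 nt), a kinase of splicing factors, had exclusion of 72 and 63 beside inclusion of 1390 and 1552, a shift of -0.35. The median absolute shift of the list was 0.18.

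Genes of RNA export, 3′ end formation and decay, the processes nearest to *Nxf1* itself, made up another list. It also held transport receptors for proteins, among them *Ipo4* and *Xpo6*. Of its 15 exons, 1 was past the fold. It was in *Dis3*, the catalytic nuclease of the exosome (68 nt), with exclusion of 259 and 199, inclusion of 322 and 351 and a shift of -0.50, just over the threshold. The other exon of *Dis3* (85 nt) had exclusion of 109 and 114, inclusion of 164 and 143 and a shift of 0.26, the opposite direction. In the import receptor gene *Ipo4* (130 nt) the shift was 0.29. *Xpo6* (91 nt), the export receptor for actin, had exclusion of 229 in both sets, inclusion of 2113 and 2129 and a shift of -0.01. The median absolute shift of these 15 was 0.16, and inclusion was the brighter path in all of them in both sets.

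Among 62 exons in the list of chromatin and transcription regulators, 3 were past the fold, all toward exclusion. Some transcription factor genes with exons past the fold, such as *Rfx2* and *Nfkb2*, were in no list. *Zfp346* (94 nt), a zinc finger protein that binds double-stranded RNA, had exclusion of 104 and 131 and inclusion of 549 and 465, a shift of 0.57. *Smarcb1* (130 nt), a core subunit of the SWI/SNF remodelling complex, had exclusion of 208 and 286 and inclusion of 1251 and 1164, a shift of 0.56. *Zfp758* (98 nt) was dim on the inclusion path, with 79 and 56 beside exclusion of 197 and 253, and its shift was 0.86. In both *Zfp346* and *Smarcb1* inclusion was several times brighter in either set. The largest of the rest with every intensity at 100 or more was *Zfp275* at -0.40.

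In ion channels and neurotransmitter receptors, 2 of 18 exons were past the fold, both toward inclusion. One was the *Htr2c* exon described above. Those within the threshold ran from -0.29 in *Clcn1* to 0.16 in *Cacna1b* and *Ano2*, and the median absolute shift of the list, at 0.09, was the lowest of the 12. The AMPA receptor subunit genes *Gria2* (115 nt, 2282 and 2326 on exclusion, 1728 and 1665 on inclusion) and *Gria3* (115 nt, 915 and 857, 2336 and 2049), had shifts of 0.08 and 0.09. Exclusion was the brighter path in *Gria2* and inclusion in *Gria3*, in both sets. Whether another exon takes the place of either one when it is skipped was not examined.

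Of 24 exons in synaptic, adhesion and axon guidance genes, 1 was past the fold each way, *Stxbp2* toward exclusion and *Sema4d* toward inclusion. *Sema4d* (64 nt), a transmembrane semaphorin, had exclusion of 202 and 136 and inclusion of 286 and 294, a shift of -0.61. *Sema4f* (94 nt), another semaphorin, lay just inside the threshold at 0.50, with exclusion of 222 and 317 and inclusion of 771 and 781. *Syt1* (80 nt), the calcium sensor of synaptic vesicles, held the highest intensity of all members, 9130 on exclusion in set A, with 8631 in set B, inclusion of 1963 and 1684 and a shift of 0.14.

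The list of small GTPases and membrane traffic genes had 27 exons, with *Trappc6a* alone past the fold. Of the 27, 20 lay above 0, a share of 74.1% beside the 55.1% of all the exons. The next largest were *Cope* (101 nt), a coatomer subunit, with exclusion of 440 and 576, inclusion of 1541 and 1436 and a shift of 0.49, and *Napa* (80 nt), the alpha-SNAP that disassembles SNARE complexes, with 606 and 833, 2339 and 2350 and a shift of 0.45. In both, the included form was the brighter and exclusion stood higher in set B. The dim exon of *Napg* (67 nt), a relative of *Napa*, was past the fold at 0.63 but in no list.

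Solute carriers, ABC transporters and ion pumps had 31 exons, 2 of them past the fold toward exclusion. *Slc16a3* (95 nt), a lactate transporter, had exclusion of 253 and 378 beside inclusion of 120 in set A and a nearly equal value in set B, a shift of 0.57. *Slc27a1* (107 nt), a fatty acid transporter, had exclusion of 477 and 568 and inclusion of 176 and 148, a shift of 0.50, just over the threshold. *Abca5* had the lowest shift of this list, at -0.36.

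In the list of ubiquitin and SUMO pathway genes, 1 of 37 exons was past the fold. It was in *Usp5* (85 nt), a deubiquitinase that takes apart free ubiquitin chains, with exclusion of 144 and 208, inclusion of 1201 and 1164 and a shift of 0.58. *Psmg4* (76 nt), a chaperone of proteasome assembly, had a shift of 0.49 and changed its brighter path, with exclusion of 302 and 356 and inclusion of 394 and 330. *Fbxo34* (110 nt) had a shift of 0.40. The exons of the ubiquitin ligase genes *Lrsam1* and *March1*, both past the fold, were in no list.

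Kinases and phosphatases had 26 exons, with the dim exon of *Cdkl3* (74 nt) past the fold at 0.53. The largest absolute shifts among the brighter ones were 0.43 in *Inppl1*, an inositol phosphatase, -0.43 in *Rps6kb2* (113 nt), an S6 kinase, and -0.39 in *Prkaa1*, a catalytic subunit of AMP-activated kinase. Mitochondrial and metabolic enzymes had 24 exons, with *Acot8* past the fold, 0.44 in *Cyp2d10* and -0.38 in *Ndufs4* (79 nt), a subunit of respiratory complex I.

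No exon was past the fold among 15 in the list of cytoskeleton and motor proteins or 12 in that of translation and ribosomal proteins. The exon of *Paip2*, the repressor of translation past the fold at -0.55, was in no list. The cytoskeletal exons ran from -0.31 in *Kif1a* (70 nt), a motor of synaptic vesicle precursors, to 0.38 in *Kif23*, a motor of cell division. *Kif1a* had exclusion of 4688 and 4274 beside inclusion of 126 and 142, so that it was almost wholly skipped by intensity. The exons of the translation list ran from -0.36 to 0.36, the latter in *Eif4g3* (116 nt), a scaffold of the cap-binding complex, with exclusion of 352 and 426 and inclusion of 740 and 696.

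**Figure D5:**
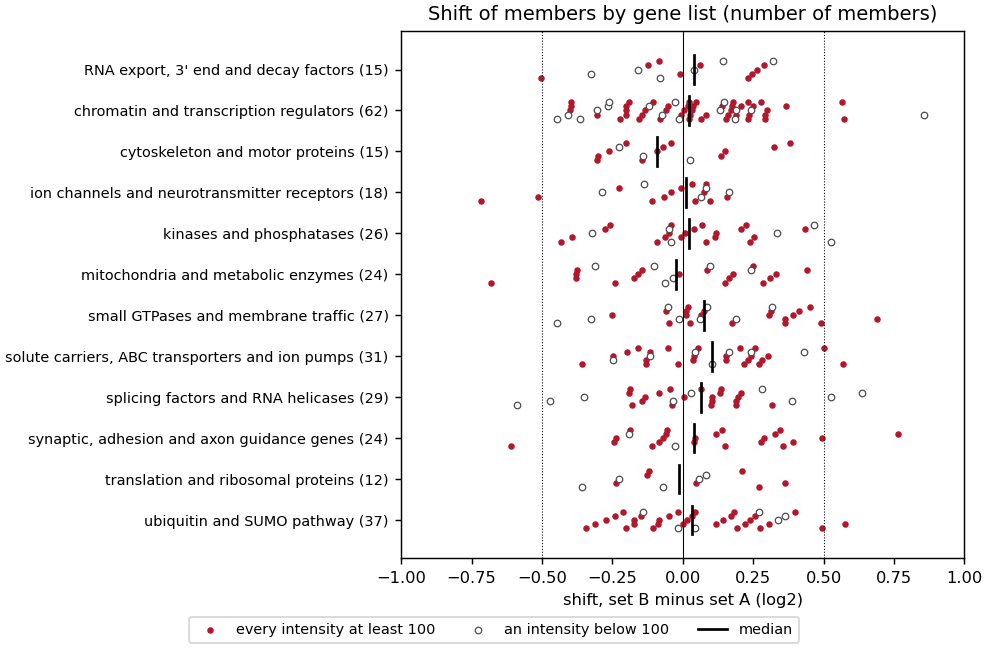
Shift (log2, set B minus set A) of the 320 exons in the 12 gene lists, 1 point per exon, with the number of exons in each list in parentheses. Red points have every intensity at 100 or more, open points have one below 100, black bars are list medians and dotted lines mark 0.5 and -0.5. The points of every list lie on both sides of 0. The channel and receptor exons have the lowest median absolute shift, at 0.09, but run from -0.72 in *Htr2c* to 0.16.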

How the data were processed

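Brain RNA of the 6 animals was hybridized to Affymetrix MJAY arrays. Per the file headers, the authors deposited intensities of exclusion and inclusion probe sets as whole numbers pooled over the arrays of each set, and the labels name Affymetrix Power Tools without a version. Normalization, background correction and genome build are not given in the sources used here. The authors' score and its q-value, for a paired and a standard comparison, were not used.

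Shifts were computed from the pooled intensities of the exclusion path, and the inclusion path mirrored it in all but 4 members. Without values per array, replicate error and depth are unknown, no test was possible, and the 3 arrays per set limit the precision. The calculation was tested on simulated data. Of the 1056 members, 39 were in transcripts with a uc name and 1007 matched a RefSeq symbol (GRCm38.p6), which gave current names, but only 91 lay within that gene's position there, so no position was taken from RefSeq. The names of 10 members had paths on more than 1 chromosome.

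Members and lists were chosen with earlier results of these data known. Named were the 10 highest and 10 lowest shifts past the fold with every intensity at 100 or more, the 3 largest such exons of each list, exons of the congenic interval, IAP and gel assays, and exons at the length limits. Dim exons past the fold and those of *Paip2*, *U2af1*, *Clk1*, *Xpo6*, *Gria2*, *Gria3*, *Syt1*, *Clcn1*, *Cacna1b* and *Ano2* were named after their values were seen. The values of 1 exon past the fold are not reported here. Python 3.11.15, numpy 2.4.6, pandas 2.3.3 and matplotlib 3.10.9 were used.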

Additional observations from a re-analysis of the deposited data

How the results depend on the processing

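No paired analysis was possible because the table holds only values pooled over arrays, and for the same reason no array could be left out in turn. The count past the fold was 90 and moved most with the treatment of low intensities and with the threshold. It was 35 with 50 added to each intensity (393 of all events), 59 with every intensity at 100 or more, 172 at a threshold of 0.4 (1722 of all events) and 3 at a threshold of 1 (28 of all events). It was 90 with the inclusion path, 67 in a window of 71 to 140 nt and 77 with centring (887 of all events). With 1 event per gene it was 90 of 999 exons, beside 870 over the 7631 genes of all events. The share of the exons was then no longer above that of all events. The median absolute shift went from 0.184 (0.172 over all events) to 0.148 with 50 added (0.140 over all events). With 1 event per gene it was 0.192, below the 0.230 of all events, so the order of the 2 was reversed there. Under the other settings it moved by little. The share of exons above 0 turned from 55.1% to 49.9% when centred on the median of all events. With 50 added, 17 of the 35 were toward exclusion. Shares by length and remainder with every intensity at 100 or more were 6.83%, 6.76% and 10.5% for the length classes and 7.95% and 7.52% for the remainders. The cause of these moves was not tested.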

Other observations

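In 48 genes there were several of the frame-shifting exons, 101 in all, and in 25 of these genes their shifts had the same sign. This was not counted over all events, so it does not show that exons of a gene shifted together. In 15 of the genes the stretches of the exons overlapped, so that those exons did not lie in separate parts of the gene. *Dguok*, a kinase of mitochondrial nucleotide supply, had 3 exons between -0.25 and -0.19, and *Esco1*, an acetyltransferase of cohesin, had 3 between 0.07 and 0.39. *Fgfr2*, a growth factor receptor, had 2 with overlapping stretches, at 0.25 and 0.47, and whether one takes the place of the other was not examined. *Dis3* and *Ndufs4* each had 1 exon on either side of 0, and *Pvt1*, a long noncoding RNA, had 2 that ran from -0.35 to 0.45. These genes were chosen after their values were seen.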
